A study of Mus musculus with 8 samples.

Results

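Satellite cells are the stem cells of skeletal muscle, and 8 genes that mark their surface or their resting state were followed in cultured mouse primary myoblasts: Sdc4, Cxcr4, Vcam1, Rgs5, Cd34, Tenm4, Chrdl2 and Calcr. They were chosen by name, as rows of the deposited table whose single gene symbol in the platform annotation is 1 of these 8, out of 19938 genes measured that way. All 8 were found. Tenm4 had 2 rows, of which the one with the highest mean stands for the gene. RNA was hybridised to Affymetrix MoGene 1.0 ST arrays, 4 labelled Runx1f/f and 4 labelled WT, each numbered 1 to 4. The Runx1f/f mice carry a floxed allele of Runx1, a transcription factor gene, and the labels also call their cells KO. Which Cre would delete the gene, and in which cells, the labels do not say. Both labels share the C57bl/6 background, the gastrocnemius as source muscle, donors 2 to 3 weeks old, and growth on Matrigel in proliferation medium. The series title concerns how Runx1, with MyoD and c-Jun, balances proliferation against differentiation.

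A satellite cell in uninjured muscle rests beneath the basal lamina, between lamina and fibre, and holds itself there through receptors and adhesion molecules on its surface. Calcitonin receptor signalling and Notch signalling keep it quiescent. On injury it enters the cycle, becomes a myoblast, switches on Myod1 and loses several of the genes that marked the resting cell, so myoblasts in growth medium are past the state that Calcr, Cd34 and Chrdl2 mark. Others of the 8, such as Sdc4, Vcam1 and Cxcr4, are used to sort both resting and activated cells.

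The arrays did not fall by label. A leading principal component held 65.5% of the variance, with arrays 2 and 3 of both labels on one side and arrays 1 and 4 of both labels on the other. In every row, Runx1f/f 1 and 2 averaged the same as Runx1f/f 3 and 4 and as all 4 WT columns, within 7.5e-05. Labels therefore cannot be compared in these values, and Runx1f/f 1 and 2 deviate from that mean by equal and opposite amounts, as do Runx1f/f 3 and 4. Runx1 itself read 9.35, 9.98, 9.89 and 9.44 in Runx1f/f 1 to 4, against 9.15, 9.99, 10.27 and 9.25 in WT 1 to 4. It was higher in the arrays numbered 2 and 3 of either label than in those numbered 1 and 4. The equal means keep any gene, the targeted one included, from separating the labels by mean, so Runx1 is no check of them here. Values were assigned by the sample named in each column's header. Whether the values under a header belong to that sample was not tested, and every value given by label and number below, and every difference within a label, rests on that assignment. The comparison below sets numbers 2 and 3 against numbers 1 and 4. It was noticed in these same data, so it is given as a description with no p-value. The labels do not say what the numbers stand for. Each array also has a source number, one of 139 to 142, 160, 161, 181 and 189. Groups of these are called runs below, and whether they are batches is not known here. The pairing of 181 with 189, which are not adjacent, is a choice made here. The labels call the samples biological replicates, and nothing says whether animals were pooled.

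As a check of the cell type, the muscle genes Myod1 and Des were bright on every array, at 11.12 to 11.57 for Myod1, the myogenic determination factor, and 11.13 to 11.47 for Des, which encodes desmin. Pax7, the transcription factor that defines satellite cells, read 6.83 to 7.19. Of the marker lists of other lineages, all 10 endothelial and all 10 leukocyte genes had a mean under 5, with Cdh5 at 3.46 to 3.57 and Ptprc at 3.52 to 3.68. Of 9 fibro-adipogenic and fibroblast genes, 7 were that dim, among them Pdgfra at 3.40 to 3.63, whereas Col3a1 read 8.60 to 9.21 and Gsn 8.39 to 9.35. Of 10 pericyte and mural genes, 6 were that dim, among them Pdgfrb at 3.39 to 4.34, whereas Acta2, the smooth muscle actin gene, read 11.49 to 11.91 and Notch3 6.99 to 7.71. All values here are log2 intensities, and all differences are numbers 2 and 3 minus numbers 1 and 4 on the log2 scale, unless a sentence says otherwise.

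Promoter sequences were available for 6 of the 8 genes, from RefSeq on GRCm38.p6. These 4 windows are shown because Sdc4 and Cd34 are the genes whose arrays parted completely, and Cxcr4 and Rgs5 are bright genes whose arrays did not. Each runs 5′ to 3′ on the gene's strand over 300 bases, with the start site at base 251. Capitals mark any match to a Runx motif (TGTGGT), an E-box (CANNTG), an AP-1 site (TGANTCA), the GC box GGGCGG, the CCAAT box by its letters or the TATA box TATAAA, each searched on both strands. The Sdc4 window lies at chr2:164443139-164443438 (minus strand), that of Cxcr4 at chr1:128592250-128592549 (minus strand), that of Rgs5 at chr1:169655251-169655550 (plus strand) and that of Cd34 at chr1:194938571-194938870 (plus strand).
Sdc4: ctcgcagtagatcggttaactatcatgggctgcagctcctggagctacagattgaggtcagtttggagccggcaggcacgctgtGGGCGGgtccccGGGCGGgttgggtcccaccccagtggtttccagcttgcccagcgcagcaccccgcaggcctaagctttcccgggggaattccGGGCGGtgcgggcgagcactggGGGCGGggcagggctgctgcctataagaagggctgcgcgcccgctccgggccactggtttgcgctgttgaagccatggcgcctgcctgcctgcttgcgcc
Cxcr4: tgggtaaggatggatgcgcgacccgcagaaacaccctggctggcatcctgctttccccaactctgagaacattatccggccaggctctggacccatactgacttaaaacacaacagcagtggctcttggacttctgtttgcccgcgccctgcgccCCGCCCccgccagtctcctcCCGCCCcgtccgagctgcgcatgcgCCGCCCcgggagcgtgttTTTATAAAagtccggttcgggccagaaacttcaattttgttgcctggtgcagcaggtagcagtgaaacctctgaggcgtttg
Rgs5: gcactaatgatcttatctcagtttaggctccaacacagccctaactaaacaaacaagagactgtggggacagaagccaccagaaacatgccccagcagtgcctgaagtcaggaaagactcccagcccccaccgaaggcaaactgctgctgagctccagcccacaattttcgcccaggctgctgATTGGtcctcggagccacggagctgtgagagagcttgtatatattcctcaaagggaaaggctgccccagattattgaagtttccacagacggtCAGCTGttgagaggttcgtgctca
Cd34: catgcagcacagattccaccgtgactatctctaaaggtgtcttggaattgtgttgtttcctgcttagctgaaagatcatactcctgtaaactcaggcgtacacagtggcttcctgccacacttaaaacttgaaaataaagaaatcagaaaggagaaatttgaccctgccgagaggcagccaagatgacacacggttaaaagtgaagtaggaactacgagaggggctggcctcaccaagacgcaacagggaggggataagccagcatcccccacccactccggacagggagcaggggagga

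The Sdc4 window held 4 GC boxes, beginning at bases 85, 97, 179 and 201, and a G and C content of 67.7%. The Cxcr4 window held 3 GC boxes and, from base 219, a pair of overlapping TATA matches on opposite strands. GC boxes occurred in 35.7% of all 32851 promoter windows and TATA boxes in 13.6%. Rgs5 had a CCAAT box on the opposite strand at base 184 and an E-box at base 277, past the start site. CCAAT boxes occurred in 37.4% of windows and E-boxes in 72.3%. The Cd34 window held none of the 6 motifs. No Runx or AP-1 match was found in any of the 8 windows of the 6 genes, where 16.8% and 7.8% of all windows held one.

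Sdc4 encodes syndecan-4, a transmembrane heparan sulphate proteoglycan that serves as a co-receptor for fibroblast growth factors and, with Fzd7 and fibronectin, for Wnt7a on satellite cells. It lies on chromosome 2 at 164424247 to 164443188 (GRCm38.p6). In the arrays numbered 2 and 3, Sdc4 read 9.98 and 10.04 in Runx1f/f and 10.11 and 9.97 in WT. In those numbered 1 and 4 it read 10.57 and 10.51 in Runx1f/f and 10.46 and 10.56 in WT. Every array numbered 2 or 3 lay below every array numbered 1 or 4, with a gap of 0.36 between the nearest pair. The means were 10.02 ± 0.06 in numbers 2 and 3 and 10.52 ± 0.05 in numbers 1 and 4 (SD, n = 4 each). The difference of -0.50, 1.41-fold lower, was several times the spread within either set. It did not reach 1.5-fold. Because the Runx1f/f values mirror one another around the shared mean, the sets are not independent of each other. Here and below, n = 4 therefore does not count independent arrays. Sdc4 was lower in numbers 2 and 3 within each label, with differences of -0.53 in Runx1f/f and -0.47 in WT. Within the run of source numbers 139 to 142, which holds arrays 1 and 2 of both labels, number 2 minus number 1 was -0.58 in Runx1f/f and -0.36 in WT.

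Cd34, a sialomucin of the cell surface and the classic marker of blood stem cells, resting satellite cells and endothelium, lies on chromosome 1 at 194938821 to 194961292. It read 3.79 and 3.92 in Runx1f/f arrays 2 and 3, and 3.91 and 3.84 in WT arrays 2 and 3. In arrays 1 and 4 it read 3.73 and 3.60 in Runx1f/f and 3.62 and 3.66 in WT. The sets did not overlap, but the nearest arrays, Runx1f/f 2 and Runx1f/f 1, were only 0.05 apart. Means were 3.87 ± 0.06 in numbers 2 and 3 and 3.65 ± 0.06 in numbers 1 and 4 (SD, n = 4 each), a difference of 0.21. It was 0.19 within Runx1f/f and 0.24 within WT. Its probe set was dim, with 34.5% of genes below it, and the detection of such a signal was not tested.

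**Figure D1:**
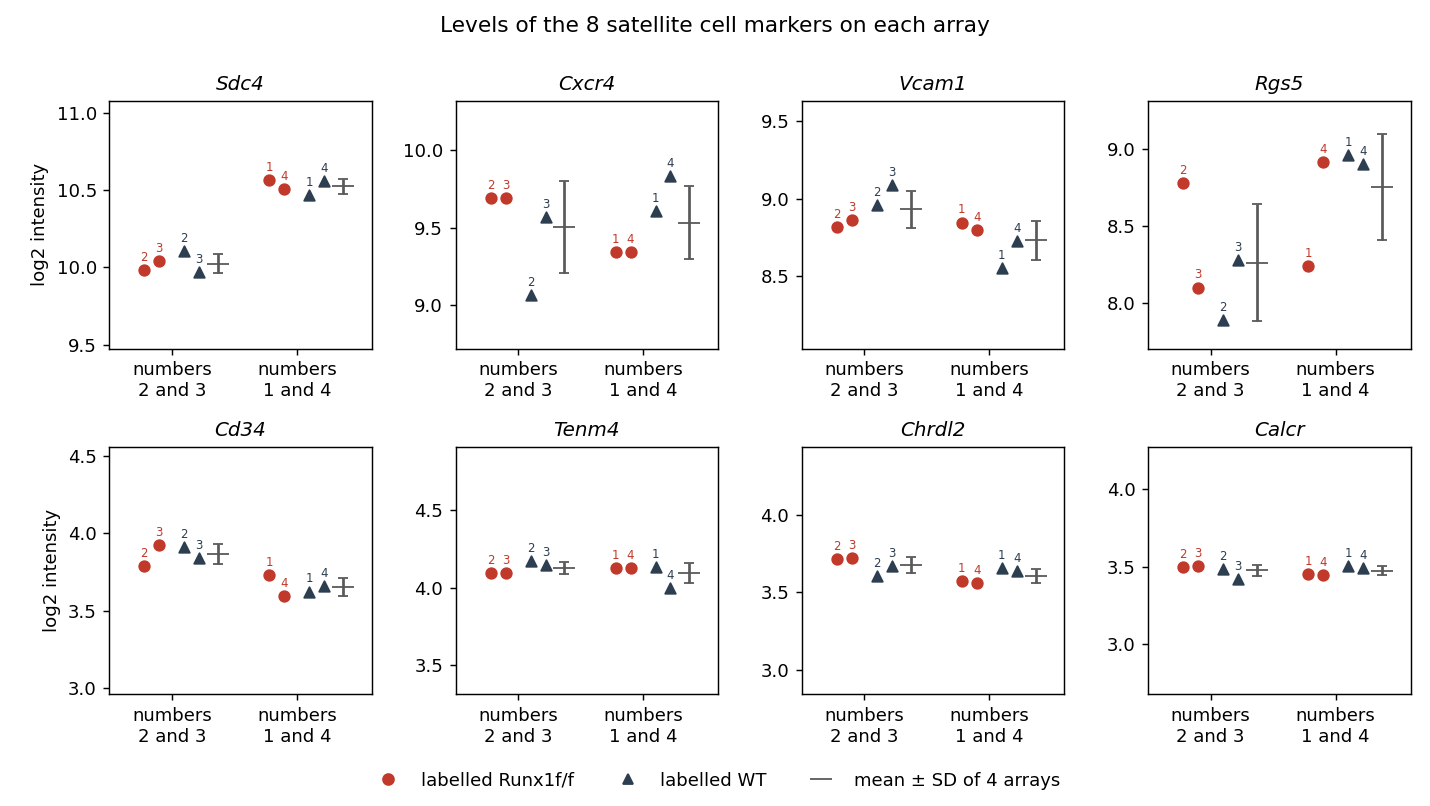
Log2 intensity (vertical axis, each panel 1.6 units high) of the 8 markers on each array, with numbers 2 and 3 left and numbers 1 and 4 right, circles for arrays labelled Runx1f/f, triangles for arrays labelled WT, the replicate number above each point, and bars for mean ± SD of 4 arrays. Sdc4 and Cd34 are the panels without overlap, and Rgs5 covers the widest range, from 7.89 to 8.96.

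These were 2 of the 8 genes, 1 above and 1 below. Over all 19938 genes, 9.87% had all arrays numbered 2 and 3 above the others and 10.5% had all of them below. The count among the markers is near that background. Past 1.5-fold as well, 0 of 8 markers were parted, against 2.16% of genes above and 0.727% below. The median difference of the 8 was 0.02, against -0.01 for all genes, and their median absolute difference was 0.14, against 0.07 for all genes.

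**Figure D2:**
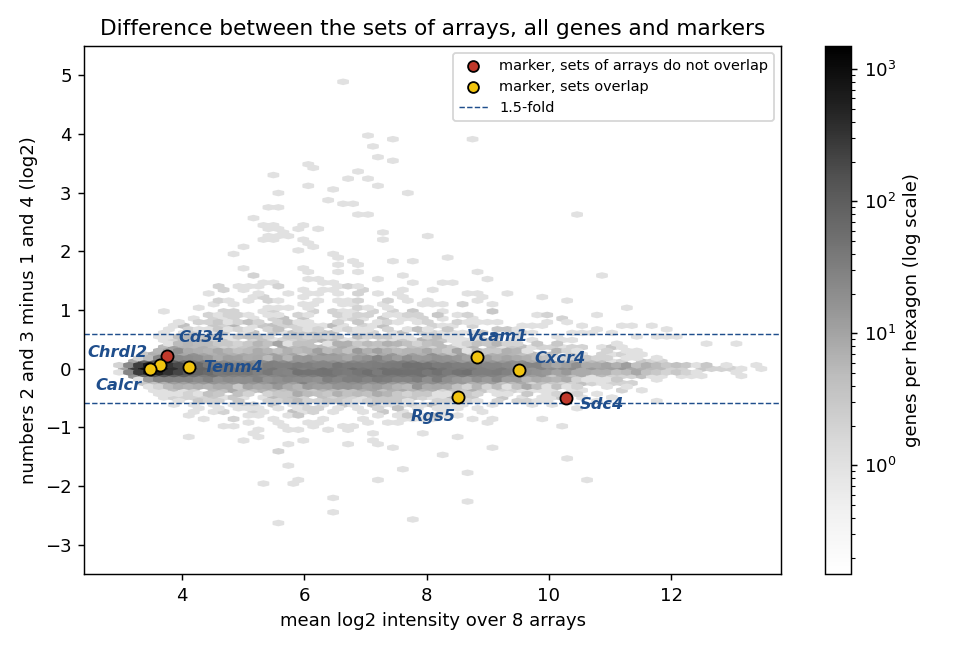
Difference between arrays numbered 2 and 3 and arrays numbered 1 and 4 (vertical axis, log2) against mean log2 intensity over 8 arrays (horizontal axis) for all genes (grey hexagons, darker for more genes) and the 8 markers (red where the sets of arrays do not overlap, yellow where they do). All 8 markers lie between the dashed 1.5-fold lines, with Sdc4 at -0.50 and Rgs5 at -0.49 nearest to the lower one.

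Rgs5 had the widest range of the 8. It encodes a regulator of G protein signalling that speeds the shut-off of G alpha subunits, is best known from pericytes, and lies on chromosome 1 at 169655501 to 169695813. It read 8.78 and 8.10 in Runx1f/f arrays 2 and 3 and 7.89 and 8.28 in WT arrays 2 and 3. In arrays 1 and 4 it read 8.24 and 8.91 in Runx1f/f and 8.96 and 8.90 in WT. The WT arrays parted cleanly, whereas among the Runx1f/f arrays number 2 read above number 1. Means were 8.26 ± 0.38 in numbers 2 and 3 and 8.75 ± 0.34 in numbers 1 and 4 (SD, n = 4 each), and the difference of -0.49 was not clearly larger than that spread. Within Runx1f/f alone it was -0.14, and within WT alone -0.84. In the run 139 to 142, number 2 minus number 1 was 0.54 in Runx1f/f and -1.07 in WT, so the direction there depended on the label. The outcome also depended on Runx1f/f 1 and 2, which mirror each other around the shared mean. Without Runx1f/f 1 the difference was -0.66, the sets no longer overlapped, and Rgs5 passed 1.5-fold. Without Runx1f/f 2 the difference was -0.66 as well, but the sets still overlapped.

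Rgs5 was the only marker with a range of at least 1 log2 unit, and the genes with the most similar profile were sought for it. Similarity was the root mean square distance between mean-centred log2 profiles over the 8 arrays, which share the equal means described above. The 3 nearest genes were Rin3 at 0.16, Lynx1 at 0.17 and Adam8 at 0.18, where a flat profile would lie at 0.40. Rin3 encodes a Rab5 activator, Lynx1 a toxin-like modulator of nicotinic receptors and Adam8 a metalloprotease. Lynx1 read 4.97 and 4.63 in Runx1f/f arrays 2 and 3, 4.52 and 4.46 in WT arrays 2 and 3, 4.76 and 5.10 in Runx1f/f arrays 1 and 4, and 5.37 and 5.12 in WT arrays 1 and 4. As for Rgs5, the arrays of WT parted while those of Runx1f/f did not, and the same held for Adam8. Rin3, the nearest, differed in this and parted in both labels, at -0.68 over all arrays. It read 5.85 and 5.35 in Runx1f/f arrays 2 and 3, and 5.89 and 6.39 in Runx1f/f arrays 1 and 4. All were picked for their likeness to Rgs5, so that likeness is no separate result.

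Cxcr4 encodes the receptor of the chemokine Cxcl12 and guides the migration of muscle precursors. The gene lies on chromosome 1 at 128588199 to 128592299. It read 9.69 and 9.70 in Runx1f/f arrays 2 and 3 and 9.07 and 9.57 in WT arrays 2 and 3. In arrays 1 and 4 it read 9.34 and 9.34 in Runx1f/f and 9.61 and 9.83 in WT. The direction was opposite in the labels, with numbers 2 and 3 higher by 0.35 in Runx1f/f and lower in WT, at -0.40. The pooled means, 9.51 ± 0.30 in numbers 2 and 3 and 9.53 ± 0.24 in numbers 1 and 4 (SD, n = 4 each), therefore hid a range of 0.77 over the 8 arrays. Within the run 139 to 142, number 2 minus number 1 was 0.35 in Runx1f/f and -0.54 in WT.

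Vcam1, the adhesion molecule that binds the integrin of Itga4 and Itgb1, lies on chromosome 3 at 116110020 to 116129688. It read 8.81 and 8.86 in Runx1f/f arrays 2 and 3 and 8.96 and 9.09 in WT arrays 2 and 3. In arrays 1 and 4 it read 8.85 and 8.80 in Runx1f/f and 8.55 and 8.72 in WT. Within the labels the difference was 0.02 in Runx1f/f and 0.38 in WT. The 4 Runx1f/f arrays kept to an SD of 0.03, against 0.24 in WT. The Runx1f/f values mirror each other in pairs, so these SDs do not compare the spread of replicates between the labels. Pooled, numbers 2 and 3 were at 8.93 ± 0.12 and numbers 1 and 4 at 8.73 ± 0.13 (SD, n = 4 each), a difference of 0.20, and the sets overlapped by Runx1f/f 1 and 2 alone.

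The remaining markers were dim. RMA compresses differences of dim probe sets. Calcr, the calcitonin receptor, which keeps satellite cells quiescent and is lost on activation, lies on chromosome 6 at 3685678 to 3764713. It read 3.50 and 3.50 in Runx1f/f arrays 2 and 3, 3.48 and 3.42 in WT arrays 2 and 3, 3.45 and 3.45 in Runx1f/f arrays 1 and 4, and 3.51 and 3.49 in WT arrays 1 and 4. All 8 arrays thus lay within 0.08 of one another, and 14.2% of genes had a lower mean. Chrdl2, a chordin-like secreted protein gene that marks resting satellite cells, lies on chromosome 7 at 100006404 to 100034728. It read 3.71 and 3.72 in Runx1f/f arrays 2 and 3, 3.60 and 3.67 in WT arrays 2 and 3, 3.57 and 3.56 in Runx1f/f arrays 1 and 4, and 3.65 and 3.64 in WT arrays 1 and 4. The Runx1f/f arrays parted by 0.15, while the WT arrays, at -0.01, overlapped.

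Tenm4, a teneurin cell adhesion protein once called Odz4, lies on chromosome 7 at 96171244 to 96911093, and its probe sets disagreed. The brighter one read 4.10 and 4.10 in Runx1f/f arrays 2 and 3, 4.17 and 4.14 in WT arrays 2 and 3, 4.13 and 4.13 in Runx1f/f arrays 1 and 4, and 4.13 and 4.00 in WT arrays 1 and 4. Its sets overlapped, with a difference of 0.03. The dimmer one read 3.75 and 3.84 in Runx1f/f arrays 2 and 3, 4.00 and 3.71 in WT arrays 2 and 3, 3.70 and 3.62 in Runx1f/f arrays 1 and 4, and 3.57 and 3.63 in WT arrays 1 and 4. There the sets did not overlap and the difference was 0.19, so the count of parted markers would be 3 with that row in place of the other.

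Taking each label alone, numbers 2 and 3 parted from 1 and 4 in the same direction in both labels for 2 of the 8 markers, Sdc4 and Cd34, against 21.3% of all genes. They parted in opposite directions for 3, Cxcr4, Tenm4 and Calcr, against 8.31% of all genes. Calcr and Tenm4 are in that count with differences of at most 0.09 in either label. The equal and opposite values of the Runx1f/f arrays make parting within that label easier than among 4 independent arrays, for markers and background alike.

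**Figure D3:**
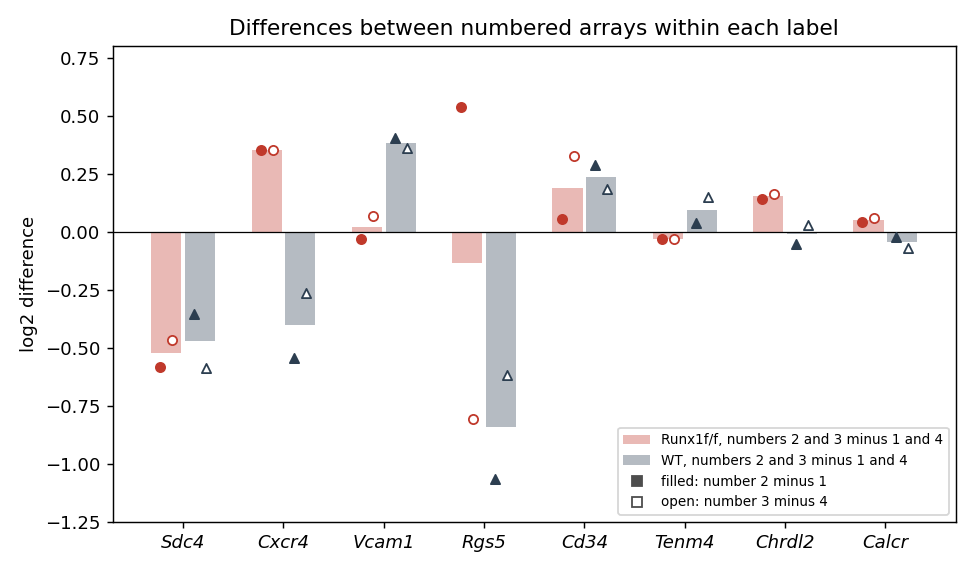
Bars give the log2 difference between numbers 2 and 3 and numbers 1 and 4 within the arrays labelled Runx1f/f (red, left bar of each pair) and WT (blue-grey, right bar), filled points number 2 minus 1 and open points number 3 minus 4. Sdc4 and Cd34 keep their sign in all 4 pairs, and Cxcr4 is above 0 in Runx1f/f and below 0 in WT.

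Between the labels themselves, limma (two-sided, Benjamini-Hochberg adjusted p under 0.05) called 0 of 8 markers and 0% of the 19938 genes, and 0 genes had an unadjusted p under 0.05. The equal column means fix that outcome, so it says nothing of Runx1. Within runs of source numbers, Runx1f/f minus WT for Cxcr4 was 0.18 in the run 139 to 142, 0.13 in 160 to 161 and -0.49 in 181 and 189, values that must cancel when weighted by their arrays. Over these runs, from the lowest numbers to the highest, Rgs5 differed by 0.08, -0.18 and 0.01, and Sdc4 by -0.01, 0.07 and -0.05. In the run 139 to 142, the Runx1f/f arrays average the mean shared with all WT arrays, in every row. The values of that run are therefore set by its WT arrays alone and do not compare the labels. The later runs hold 1 array per label and allow no test.

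Partners of the markers were read from lists by role, against the same background of 9.87% of genes higher and 10.5% lower without overlap. Among 8 syndecans and Sdc4 partners, 2 parted, both lower in numbers 2 and 3. Sdc2 averaged 8.15 ± 0.13 in numbers 2 and 3 and 8.57 ± 0.12 in numbers 1 and 4, and Sdc1 averaged 6.89 ± 0.07 in numbers 2 and 3 and 7.23 ± 0.09 in numbers 1 and 4 (SD, n = 4 each). Sdc3, a syndecan also found on satellite cells, differed by -0.81, with -0.04 in Runx1f/f and -1.59 in WT, and its sets overlapped. Sdc1, Sdc2 and Sdc3 of the list, and the marker Sdc4, thus had a lower mean in numbers 2 and 3. The share of all genes with a lower mean was not counted. The median of the list was -0.19, against -0.01 for all genes. Fn1, which encodes fibronectin, differed by -0.23 with overlap.

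Of 12 genes of the calcitonin receptor pathway, 2 parted, both higher in numbers 2 and 3 and past 1.5-fold, with a list median of -0.03. Ramp3, a co-receptor that changes the ligand choice of the calcitonin receptor family, averaged 5.31 ± 0.21 in numbers 2 and 3 and 4.47 ± 0.19 in numbers 1 and 4. Col5a3, a chain of collagen V, the Notch-driven matrix protein that binds the calcitonin receptor in satellite cells, averaged 5.32 ± 0.09 in numbers 2 and 3 and 4.71 ± 0.07 in numbers 1 and 4 (SD, n = 4 each). Col5a2, another chain, went the other way at -0.49, and Calcrl, the related receptor, was at 0.55, both with overlapping sets. Col5a1, also a chain of collagen V, was at -0.009 with overlap, with 0.28 in Runx1f/f and -0.30 in WT.

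Around Cxcr4, 1 of 6 genes parted, with a list median of -0.05. Ackr3, the second receptor of Cxcl12, was lower in numbers 2 and 3 by -0.18. Cxcl12 differed by -0.25 with overlap, and like its receptor it had opposite signs in the labels, 0.23 in Runx1f/f and -0.74 in WT. Gnai1, a G protein subunit such receptors couple to, did so too, at 0.24 in Runx1f/f and -0.44 in WT. The brighter Gnai2 and Gnai3 of this list were flat, at 0.002 and 0.0003. Over all genes, 8.31% parted in opposite directions in the labels. Among the 4 integrins that bind Vcam1, Itga9 parted at 0.25, and Itga4 was at 0.42 with overlap, in a list with a median of 0.16.

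For Chrdl2, 4 of 10 chordin family members and BMP ligands parted, all higher in numbers 2 and 3, and the list median was 0.03. Nog, the BMP antagonist noggin, averaged 5.57 ± 0.26 in numbers 2 and 3 and 4.78 ± 0.16 in numbers 1 and 4. Grem1, which encodes gremlin, averaged 4.44 ± 0.23 in numbers 2 and 3 and 3.75 ± 0.26 in numbers 1 and 4 (SD, n = 4 each). Chrd was at 0.42 and Bmp6 at 0.04. Of the 10 genes, 8 had a mean under 5, among them Grem1, Chrd and Bmp6. Fst, the follistatin gene, was at -0.69 with overlap, with 0.18 in Runx1f/f and -1.55 in WT.

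Adgrl2, a latrophilin receptor of teneurins, was the 1 parted gene of 6 in its list, at 9.18 ± 0.21 in numbers 2 and 3 and 8.44 ± 0.27 in numbers 1 and 4 (SD, n = 4 each), with a list median of -0.02. Of 8 relatives of Rgs5, Rgs4 alone parted, and in the direction opposite to Rgs5, at 0.45, with a list median of 0.08. Among 4 genes related to Cd34, the sialomucin Emcn parted at -0.06, and Podxl, which encodes the related podocalyxin, was at 0.22 with overlap, with a list median of 0.04.

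The 30 further satellite cell and quiescence genes gave 9 higher and 2 lower in numbers 2 and 3 without overlap, where 9.87% of all genes were higher and 10.5% lower, with a median of 0.08 against -0.01 for all genes. Of the 30, 25 had a mean of at least 5, against 8949 of all 19938 genes, so that background is dimmer than the list. Past 1.5-fold, 4 of the 30 were higher and 2 lower. Among genes with a mean of at least 5, 3.97% were higher and 1.41% lower past 1.5-fold. Myf5, the determination factor primed in satellite cells, averaged 7.66 ± 0.17 in numbers 2 and 3 and 8.55 ± 0.18 in numbers 1 and 4. Megf10, a receptor that favours myoblast proliferation, was lower in numbers 2 and 3 too, at 9.44 ± 0.20 in numbers 2 and 3 and 10.03 ± 0.19 in numbers 1 and 4 (SD, n = 4 each). The Notch target Heyl was at 0.76 and Cav1, the gene of caveolin-1, at 0.70. Hey1, another Notch target, had the largest difference in this list, 1.05, but its sets overlapped. Hes1 in the same list went the other way, at -0.18 with overlap. Pax7 differed by 0.08 with overlap.

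**Figure D4:**
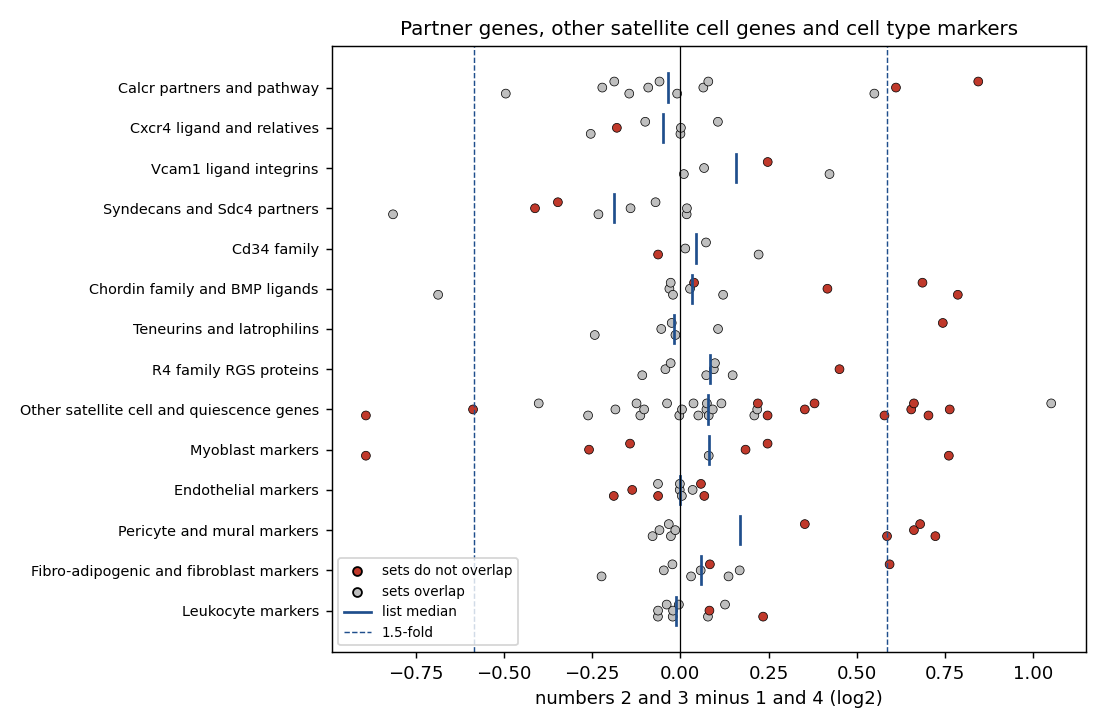
Each point is a gene, placed by its difference between arrays numbered 2 and 3 and arrays numbered 1 and 4 (horizontal axis, log2), in a row for its list, with red for sets that do not overlap, grey for overlap, a blue bar at the list median and dashed lines at 1.5-fold. The syndecan list has its median at -0.19 and the pericyte and mural list at 0.17.

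Cd34, Vcam1 and Rgs5 also mark other cells, and their marker lists were read on the same arrays. Of 10 pericyte and mural markers, 5 parted, all higher in numbers 2 and 3 (all genes, 9.87% higher and 10.5% lower), with summed log2 levels of 54.3 to 55.8 in numbers 2 and 3 and 51.4 to 52.9 in numbers 1 and 4. Cspg4 was at 0.72, Abcc9 at 0.68, Mcam at 0.66 and Pdgfrb at 0.59, while Kcnj8, Higd1b and Myh11 read at most 3.65, 3.58 and 3.56. Acta2, the brightest of the list, was at -0.03 with overlap. Rgs5 itself was at -0.49 with overlapping sets. Mcam and Notch3 of this list are also in the satellite cell list. Of 10 endothelial markers, 2 parted higher and 3 lower, all 10 had a mean under 5, and the sums were 35.2 to 35.7 in numbers 2 and 3 and 35.5 to 35.9 in numbers 1 and 4. The largest was Pecam1 at -0.19, in the direction opposite to Cd34. Of 9 measured fibro-adipogenic markers, 2 parted higher, Gsn at 0.59 and Pi16 at 0.08, with sums of 44.0 to 44.4 in numbers 2 and 3 and 43.2 to 43.8 in numbers 1 and 4. Of 10 leukocyte markers, all dim, 2 parted higher, Itgam at 0.23 and Csf1r at 0.08, with sums of 35.7 to 36.9 in numbers 2 and 3 and 35.5 to 36.1 in numbers 1 and 4.

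Myoblast markers, of which Pax7, Myf5 and Cdh15 are also in the satellite cell list, differed as well. Of 7, 3 parted higher and 3 lower in numbers 2 and 3, with sums of 71.0 to 71.1 in numbers 2 and 3 and 70.9 to 71.2 in numbers 1 and 4. Myog, which drives terminal differentiation, was at 11.72 ± 0.19 in numbers 2 and 3 and 10.96 ± 0.21 in numbers 1 and 4, and Myod1 at 11.22 ± 0.07 in numbers 2 and 3 and 11.48 ± 0.06 in numbers 1 and 4 (SD, n = 4 each). The part of cell mix or stage of differentiation in the values of Sdc4 and Cd34 was not tested. In RNA of a whole culture, fewer cells of a type and less RNA per cell cannot be told apart.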

How the data were processed

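RNA of 8 myoblast cultures was measured on single-colour arrays, from 200 ng of total RNA each per the labels' protocols. The deposited table holds log2 intensities, made by the authors with RMA and Partek per the submitters' processing notes, versions not given. RMA corrects background, quantile-normalizes and summarizes probes. No source records the step behind the equal column means, which leave 5 components with variance. Array medians were 4.39 to 4.41. Precision is limited by having 8 arrays.

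Of 35399 rows, 21789 had 1 symbol, 1621 several and 11989 no annotation. For 21698 the gene identifier matched RefSeq (GRCm38.p6), with 0 symbols changed. The highest-mean row stands for a gene. The fit between labels used limma 3.58.1 (R 4.3.3) over all genes, and its code was tested on simulated data. Numbers 2 and 3 were set against 1 and 4 by overlap and by 1.5-fold (0.58 on the log2 scale), with no test.

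Markers and lists were chosen with earlier results of these data known. Named were all 8 markers, up to 4 genes per list by absolute difference, and profiles nearest to markers with a range of at least 1 log2 unit. Other names were chosen after their values were seen, as were the GC, CCAAT and TATA motifs. Listed genes without a row of 1 symbol were not analysed here. Deviations from label means correlated by 0.39, 0.46, 0.60 and 0.57 for numbers 1 to 4, so the numbers were used as a block in an alternative fit.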

Additional observations from a re-analysis of the deposited data

Results flagged for a closer look

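Cxcr4 moved in opposite directions in the labels, with every Runx1f/f array numbered 2 or 3 above those numbered 1 and 4 and every WT array numbered 2 or 3 below them. The difference was 0.35 in Runx1f/f and -0.40 in WT, and these lie 0.755 apart. Tenm4 did so in reverse, with -0.03 in Runx1f/f and 0.09 in WT, which lie -0.124 apart, and Calcr with 0.05 in Runx1f/f and -0.05 in WT, which lie 0.096 apart. These differences between the labels were not tested. A check for an array far from the other 3 of its label, on 16 groups of 4 values, marked 0, where about 5% of such groups are marked by chance. The mirrored Runx1f/f values cannot be marked by it.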

How the results depend on the processing

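The count of markers parted past 1.5-fold between numbers 2 and 3 and numbers 1 and 4 stayed at 0 after centring, renewed quantile normalization, a floor of 5 on the mean, all rows of 1 symbol, a 2-fold minimum, Runx1f/f arrays alone and the run 139 to 142 alone. It was 2 with no minimum difference (Sdc4 and Cd34) and 1 in WT arrays alone (Rgs5). With 1 array left out it was 0 to 1, the 1 being Rgs5 without Runx1f/f 1. Over all alternatives Sdc4 ran from -0.53 to -0.47, Cd34 from 0.17 to 0.24, Rgs5 from -0.84 to -0.14, Cxcr4 from -0.40 to 0.35 and Vcam1 from 0.02 to 0.38. Of 116 values of single markers, 105 moved by less than the spread within sets, and the other 11 are values within 1 label or the second Tenm4 row. The cause of these moves was not tested. Some of the 105 could not move, because the floor on the mean and the use of all rows keep the row of a marker. Leaving out Runx1f/f 1 or Runx1f/f 2 gave equal values by the mirroring, as did leaving out Runx1f/f 3 or Runx1f/f 4. Over all genes, 430 were above and 145 below past 1.5-fold, against 160 and 35 past 2-fold, 1968 and 2091 with no minimum, and 565 and 377 in WT alone. With the replicate block, limma called 0 genes between labels, as in every alternative, with 0 to 27 genes at an unadjusted p under 0.05, and the block changed no other call. Equal column means fix most of these counts, and a left-out array only exposes its own deviation. Of the 8 arrays, 4 resembled their own number best. Numbers 2 and 3 lie apart from 1 and 4 in both labels, and the Runx1f/f values mirror each other. That count therefore cannot tell whether arrays of the same number belong together. Signal over background was not available as a limit here.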
